A study of Homo sapiens with 8 samples.

Results

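The 10 transcripts described here encode chaperones and proteases that keep mitochondrial proteins folded or remove them: HSPD1, HSPE1, TRAP1, CLPP, CLPX, LONP1, YME1L1, AFG3L2, SPG7 and OMA1. They were a list of symbols, matched exactly to 60234 genes of a normoxia table and 60612 genes of a hypoxia table. This list and the related lists below were chosen with earlier results of these data known, so counts of their calls are descriptions. Each symbol was found once in each table, and all 10 passed the filter on low values. RNA came from DLD1, a human colorectal cancer cell line with epithelial growth, in 8 libraries that form 4 groups of 2. The groups were control cells (shNT, genotype label WT) and PPA2-knockdown cells (shPP) in normoxia (HO), and the same kinds of cells in hypoxia (LO), each for 12 hours. PPA2 encodes the inorganic pyrophosphatase of the mitochondrial matrix, which splits the pyrophosphate that biosynthetic reactions release. All groups carried an shRNA and had the same exposure time. The labels give neither another hairpin against PPA2 nor a rescue, so effects of that hairpin apart from PPA2 cannot be told apart from the knockdown. Nothing in them tells whether replicates were separate cultures; the spread behind each p-value is that between libraries and may be technical.

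Most mitochondrial proteins arrive from the cytosol unfolded and are folded in the matrix. HSPD1 (HSP60) forms a barrel in which a substrate protein folds, and HSPE1 (HSP10) is its lid. TRAP1 is the HSP90 chaperone of mitochondria. LONP1 and the complex of CLPX, which unfolds, and CLPP, which cuts, degrade damaged matrix proteins. YME1L1 and the partners AFG3L2 and SPG7 are ATP-driven proteases of the inner membrane that face opposite sides of it. OMA1 is a membrane protease that stress activates, and it cleaves the fusion protein OPA1 and the stress messenger DELE1. Many of these genes are known to be induced together in the mitochondrial unfolded protein response.

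Values were deposited per gene length and library size, as reads (RPKM) for normoxia and as fragments (FPKM) for hypoxia. The tables have separate normalizations, so control and knockdown were compared inside a table, with limma on log2(value + 1), and a gene was called at a Benjamini-Hochberg adjusted p under 0.05 over all genes tested. The estimated depth of the normoxia libraries was 27984000 to 35702000 reads, and that of the hypoxia libraries is unknown. PPA2 stood at 79.8 and 84.1 RPKM in control and 5.88 and 5.74 RPKM in knockdown libraries under normoxia. The hypoxia values of PPA2 were 65.5 and 50.8 FPKM in control and 9.85 and 9.0 FPKM in knockdown libraries. The epithelial markers EPCAM, KRT8, KRT18, KRT19, CDH1 and CDX2 were at 39.6 or more in every library and VIL1 at 0.55 to 4.51, while 3 blood cell markers summed to at most 1.45. Transcripts of the mitochondrial genome made up 10.7% to 12.1% of the summed values under normoxia. Under hypoxia they made up 7.6% and 8.45% in control and 12.4% and 12.5% in knockdown libraries. The summed share of all other genes was therefore lower in those knockdown libraries, which does not give the direction of any single gene. The sum of all values was also lower there, at 424998 and 405999 FPKM in control and 380990 and 381354 FPKM in knockdown libraries. Under normoxia that sum was 493695 and 492167 RPKM in control and 483864 and 474231 RPKM in knockdown libraries.

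Knockdown went with fewer chaperone transcripts at both oxygen levels, with a fall in some but not all of the proteases, and with no rise that passed the test. Under normoxia 6 of the 10 genes fell and 0 rose, against 11.7% of 14090 tested genes that fell and 22.5% that rose. Their median log2 fold change was −0.26, beside 0.07 over all tested genes. Under hypoxia 7 fell and 0 rose, against 33.8% of 13080 tested genes that fell and 24.6% that rose. The median was then −0.42, beside −0.06 over all tested genes. The 6 genes that fell under normoxia, HSPD1, HSPE1, TRAP1, CLPP, LONP1 and AFG3L2, all fell under hypoxia as well, where SPG7 was the added gene. In total 34.2% of tested genes were called under normoxia and 58.4% under hypoxia. The split of calls moved with scaling. It was 1653 lower and 3165 higher under normoxia, 2362 and 2338 with trimmed-mean scaling, and 1290 and 3976 with mitochondrial genome genes left out. Under hypoxia it was 4418 lower and 3219 higher, against 3898 and 3787, and 2998 and 4578. Leaving out the mitochondrial genome genes also rescaled the remaining values to equal sums within an oxygen level, here and wherever this setting is named below. It moved the median of all genes under hypoxia from −0.06 to 0.10. Omitting genes does not alter the values of the others, so fold changes of single genes moved through the rescaling. How much of that came from the mitochondrial share and how much from the total of all values was not tested.

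**Figure D1:**
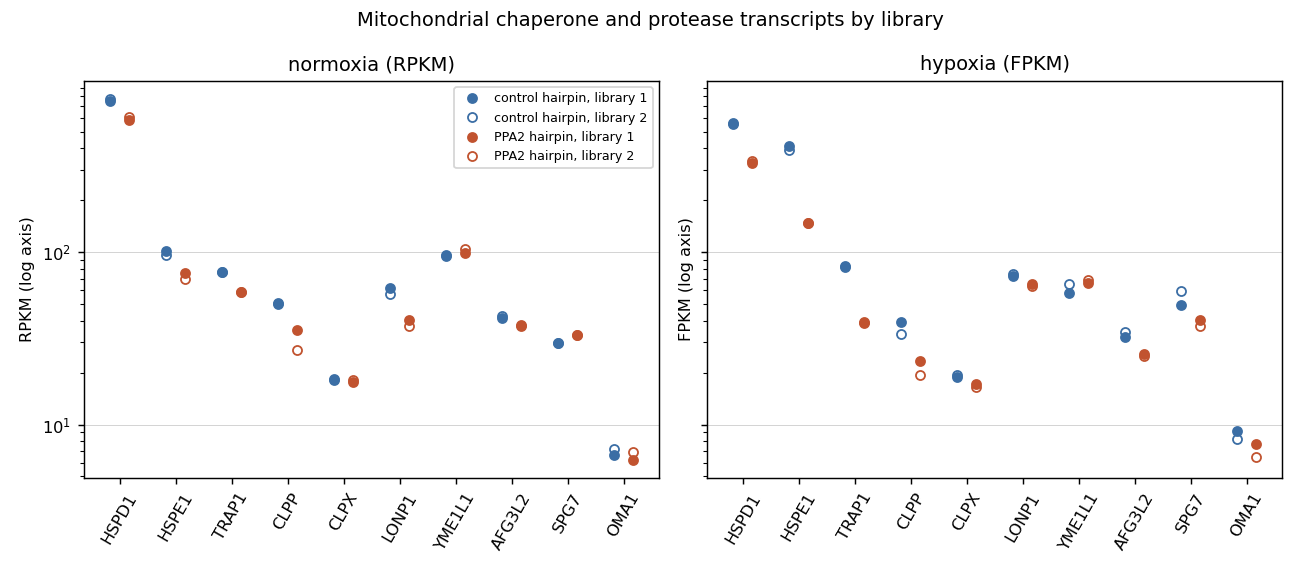
Values of the 10 transcripts in each of the 8 libraries, as RPKM under normoxia (left) and FPKM under hypoxia (right), on a shared log axis; filled and open circles are the libraries of replicate 1 and 2, blue for control and red for PPA2 knockdown. HSPD1 is highest in every library and OMA1 lowest, and the gap between blue and red is widest for HSPE1 and TRAP1 under hypoxia.

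The order of levels, which are per length within a table, was led by HSPD1 in all 4 groups, and CLPX and OMA1 came last. In control cells under normoxia HSPD1 alone made up 61.4% of the summed RPKM of the 10 genes, and OMA1 0.561%. No neighbours in that order overlapped in control cells under normoxia. In knockdown cells under normoxia LONP1 overlapped AFG3L2, and SPG7 overlapped CLPP. Under hypoxia YME1L1 overlapped SPG7 and CLPP overlapped AFG3L2 in control cells, and SPG7 overlapped TRAP1 in knockdown cells. The summed RPKM of all 10 was 1230 and 1247 in control and 984.7 and 1002 in knockdown libraries under normoxia. The summed FPKM was 1329 and 1327 in control and 763.5 and 763.1 in knockdown libraries under hypoxia, so the groups did not overlap at either oxygen level. The groups did not overlap for 8 of the 10 genes under normoxia and for 10 under hypoxia, against 70.5% and 80.4% of all tested genes.

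Among the folding chaperones, HSPD1 (ENSG00000144381, chr2:197486584-197516737, minus strand) stood at 748.6 and 772.7 RPKM in control and 580.9 and 608.5 RPKM in knockdown libraries under normoxia. Both knockdown libraries lay below both control libraries. The log2 fold change was −0.35 ± 0.05 (SE), or 21.8% lower (limma adjusted p = 0.00494). Under hypoxia HSPD1 stood at 552.6 and 561.3 FPKM in control and 330.9 and 338.4 FPKM in knockdown libraries. The groups were again apart, at a log2 fold change of −0.73 ± 0.06, or 39.9% lower (limma adjusted p = 0.000156).

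HSPE1 (ENSG00000115541, chr2:197500140-197503449, plus strand), the lid of the same chamber, stood at 100.9 and 96.5 RPKM in control and 75.8 and 69.9 RPKM in knockdown libraries under normoxia. This was a log2 fold change of −0.43 ± 0.06, or 26.2% lower (limma adjusted p = 0.00345). The hypoxia values of HSPE1 were 413.5 and 389.6 FPKM in control and 147.4 FPKM in each knockdown library. All knockdown values lay below all control values at both oxygen levels. The hypoxia log2 fold change, −1.44 ± 0.06 or 63.3% lower, was the most negative of the 10 genes (limma adjusted p = 2.48e-05), and 1.49% of all tested genes had a more negative value. HSPE1 lies inside the interval of HSPD1 on the opposite strand, and whether counting used strand was not stated, so reads of overlapping parts may belong to either gene. The level of HSPE1 cannot be set across the tables. Its locus is shared with the readthrough gene HSPE1-MOB4, which was listed at 0 in all normoxia libraries and at 1.96 to 4.76 FPKM in the hypoxia libraries. The pseudogene HSPE1P2 stood at 8.23 to 13.6 RPKM under normoxia and at 0 to 0.197 FPKM under hypoxia. HSPD1P1 stood at 9.11 to 11.4 RPKM and at 0.268 to 0.615 FPKM. Of 18 pseudogenes named after HSPD1 and 26 named after HSPE1, 5 reached a value of 1 in any library, the others being HSPD1P4, HSPD1P11 and HSPE1P3. The effect of read sharing on these fold changes was not tested.

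HSPD1 and HSPE1 lie head to head and are transcribed away from a common stretch, so their upstream sequences are shown as a pair. Those of TRAP1 and LONP1 were added after their values were seen. TRAP1 fell more under hypoxia than under normoxia, like this pair, while LONP1 fell at both oxygen levels but less under hypoxia. The windows are those of RefSeq on GRCh38.p14, 300 bases each, from 250 bases before to 50 bases after a start site, printed 5′ to 3′ on the gene's strand. Of the 10 genes 8 had a window, and for HSPD1 and LONP1, which had 2 each, the window further downstream is printed. Capitals mark heat shock elements in HSPD1 (TTCNNGAA and GAANNTTC), the E-box CACGTG in HSPE1 and LONP1, and the cyclic AMP response element TGACGTCA in TRAP1.
HSPD1, chr2:197499791-197500090, minus strand: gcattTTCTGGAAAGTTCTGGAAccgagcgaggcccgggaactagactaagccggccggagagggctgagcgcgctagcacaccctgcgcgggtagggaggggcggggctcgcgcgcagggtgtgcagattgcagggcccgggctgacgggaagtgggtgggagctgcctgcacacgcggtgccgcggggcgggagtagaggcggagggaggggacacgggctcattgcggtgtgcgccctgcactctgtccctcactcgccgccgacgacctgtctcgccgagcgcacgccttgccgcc
HSPE1, chr2:197500129-197500428, plus strand: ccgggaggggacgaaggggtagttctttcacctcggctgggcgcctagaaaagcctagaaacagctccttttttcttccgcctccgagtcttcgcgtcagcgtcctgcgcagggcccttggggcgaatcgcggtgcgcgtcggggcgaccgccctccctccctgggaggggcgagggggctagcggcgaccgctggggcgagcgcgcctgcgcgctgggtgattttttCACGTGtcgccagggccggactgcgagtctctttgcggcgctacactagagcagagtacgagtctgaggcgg
TRAP1, chr16:3717475-3717774, minus strand: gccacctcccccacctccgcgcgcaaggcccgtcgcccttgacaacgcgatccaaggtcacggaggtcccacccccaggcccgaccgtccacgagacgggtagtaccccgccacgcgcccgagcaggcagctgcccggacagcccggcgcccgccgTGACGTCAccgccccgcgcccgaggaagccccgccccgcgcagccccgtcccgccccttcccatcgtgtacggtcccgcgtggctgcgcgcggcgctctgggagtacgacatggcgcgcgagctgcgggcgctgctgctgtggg
LONP1, chr19:5720097-5720396, minus strand: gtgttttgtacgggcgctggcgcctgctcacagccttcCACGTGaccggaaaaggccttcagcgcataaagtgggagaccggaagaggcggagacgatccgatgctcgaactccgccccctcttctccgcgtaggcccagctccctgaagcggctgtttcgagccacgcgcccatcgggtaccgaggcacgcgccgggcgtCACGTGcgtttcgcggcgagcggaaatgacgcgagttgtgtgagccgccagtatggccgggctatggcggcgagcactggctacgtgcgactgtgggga

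The heat shock motifs, which the factor HSF1 binds, formed 3 overlapping matches in a run of 18 bases, 228 bases upstream of the HSPD1 start site and 294 bases upstream of the HSPE1 start site. TTCNNGAA was present in 7.74% and GAANNTTC in 6.77% of 35116 RefSeq windows of the same length, searched on both strands. Neither was found in a window of another of the 8 genes. CACGTG was present in 7.26% of windows, once in that of HSPE1 and in 2 copies in that of LONP1. The other HSPD1 window shares 204 bases with that of HSPE1, including this E-box. The hypoxia response core ACGTG, which lies inside each CACGTG, was present in 21.4% of all windows and, outside an E-box, in those of CLPX, SPG7 and LONP1. TGACGTCA was present in 1.85% of windows and, among these genes, in that of TRAP1. The core TGCAAT, bound by the stress factor CHOP and its partners, was present in 8.21% of windows and in that of HSPD1. The palindromic motif of the factor NRF1 was present in 1.24% of windows and in the other LONP1 window. CCAAT was present in 34.6% of windows and in that of CLPX. The composite ATF4 motif TGATGNAA, present in 3.62% of windows, was not among the letters of any member's window. These are matches of letters and not measured binding.

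TRAP1 (ENSG00000126602, chr16:3651639-3717553, minus strand) stood at 76.8 and 76.5 RPKM in control and 58.8 and 59.1 RPKM in knockdown libraries under normoxia. The groups were far apart relative to the gap within each, at a log2 fold change of −0.37 ± 0.05, or 23.1% lower (limma adjusted p = 0.00277). Under hypoxia TRAP1 stood at 83.0 and 81.5 FPKM in control and 38.8 and 39.1 FPKM in knockdown libraries. Its hypoxia log2 fold change was −1.06 ± 0.06, or 52.6% lower (limma adjusted p = 4.38e-05).

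Of the matrix proteases, CLPP and LONP1 fell and CLPX did not pass the test. CLPP (ENSG00000125656, chr19:6361531-6370242, plus strand), the cutting subunit, stood at 50.9 and 50.3 RPKM in control and 35.2 and 27.0 RPKM in knockdown libraries under normoxia. Its knockdown libraries differed from each other more than its control libraries did, yet both lay lower. The log2 fold change was −0.70 ± 0.11, or 38.5% lower, the most negative of the 10 genes under normoxia (limma adjusted p = 0.00614). With no filter on low values its adjusted p was 0.0514. Under hypoxia CLPP stood at 39.2 and 33.6 FPKM in control and 23.3 and 19.3 FPKM in knockdown libraries. This was a log2 fold change of −0.75 ± 0.11, or 41.6% lower (limma adjusted p = 0.00133).

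CLPX (ENSG00000166855, chr15:65148219-65185342, minus strand), the unfolding partner of CLPP, stood at 18.1 and 18.4 RPKM in control and 17.7 and 18.1 RPKM in knockdown libraries under normoxia. The groups overlapped, and the log2 fold change was −0.03, with a 95% interval of −0.16 to 0.11 (limma adjusted p = 0.753). Under hypoxia CLPX stood at 19.0 and 19.3 FPKM in control and 17.3 and 16.5 FPKM in knockdown libraries. The log2 fold change was −0.17 with a 95% interval of −0.34 to −0.002 (limma adjusted p = 0.0761), and it passed in a fit of all 8 libraries (adjusted p = 0.0354). With mitochondrial genome genes left out both values of CLPX were positive, at 0.03 and 0.01.

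LONP1 (ENSG00000196365, chr19:5691834-5720572, minus strand), the other ATP-driven matrix protease, stood at 61.6 and 57.1 RPKM in control and 40.6 and 37.1 RPKM in knockdown libraries under normoxia. Both knockdown libraries lay well below the control libraries, at a log2 fold change of −0.60 ± 0.07, or 34.5% lower (limma adjusted p = 0.00195). Under hypoxia the gap was small, with 73.1 and 74.5 FPKM in control and 65.5 and 63.9 FPKM in knockdown libraries. The hypoxia log2 fold change was −0.19 ± 0.06, or 12.3% lower (limma adjusted p = 0.0329). That call was lost without knockdown replicate 1 (−0.20, adjusted p = 0.178) or knockdown replicate 2 (−0.17, 0.264) and with trimmed-mean scaling (−0.11, 0.16), and the value was 0.01 when mitochondrial genome genes were left out. The ribosomal protein gene RPL36 overlaps LONP1 on the opposite strand. It stood at 573.9 and 556.2 RPKM in control and 495.6 and 482.9 RPKM in knockdown libraries under normoxia. Under hypoxia RPL36 stood at 485.4 and 437.2 FPKM in control and 301.6 and 300.1 FPKM in knockdown libraries. Here too, reads of the overlapping part may belong to either gene.

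**Figure D2:**
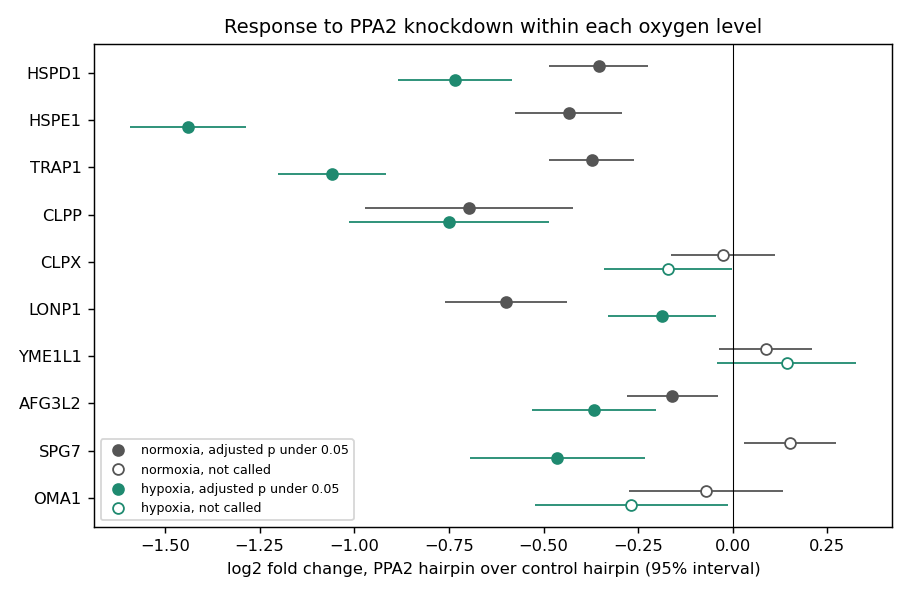
Log2 fold change of each transcript with PPA2 knockdown against control, with 95% intervals from limma, in grey for normoxia and green for hypoxia; filled circles passed an adjusted p of 0.05 within their table. HSPE1 (−1.44) and TRAP1 (−1.06) lie furthest to the left under hypoxia, and CLPP (−0.70) and LONP1 (−0.60) under normoxia.

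Of the proteases of the inner membrane, AFG3L2 fell at both oxygen levels and SPG7 under hypoxia, and YME1L1 and OMA1 did not pass the test. AFG3L2 (ENSG00000141385, chr18:12328944-12377227, minus strand), which assembles alone or with SPG7 into the protease that faces the matrix, stood at 41.7 and 42.6 RPKM in control and 37.4 and 37.8 RPKM in knockdown libraries under normoxia. The log2 fold change was −0.16 ± 0.05, or 10.7% lower, just past the threshold (limma adjusted p = 0.0497). It did not pass in 12 of 14 alternatives, among them without control replicate 1 (−0.17, adjusted p = 0.225), control replicate 2 (−0.15, 0.314), knockdown replicate 1 (−0.15, 0.0675) or knockdown replicate 2 (−0.17, 0.0605). Under hypoxia AFG3L2 stood at 32.1 and 34.2 FPKM in control and 25.8 and 25.1 FPKM in knockdown libraries. Its groups were apart again, at a log2 fold change of −0.37 ± 0.07, or 23.2% lower (limma adjusted p = 0.00369). It did not pass when mitochondrial genome genes were left out (−0.18, adjusted p = 0.0856).

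SPG7 (ENSG00000197912, chr16:89490719-89557766, plus strand), which encodes paraplegin, stood at 29.6 and 29.7 RPKM in control and 33.0 and 33.1 RPKM in knockdown libraries under normoxia. Both knockdown libraries were slightly higher, but the log2 fold change of 0.15 ± 0.05 was not called (limma adjusted p = 0.0617). With mitochondrial genome genes left out it was called higher (0.20, adjusted p = 0.0248). Under hypoxia SPG7 stood at 49.5 and 59.4 FPKM in control and 40.7 and 37.5 FPKM in knockdown libraries. The control libraries differed from each other, and both lay above the knockdown libraries, at a log2 fold change of −0.46 ± 0.10, or 28.2% lower (limma adjusted p = 0.00599). The adjusted p was 0.0674 with no filter, and without mitochondrial genome genes the value was −0.27 (adjusted p = 0.0641).

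YME1L1 (ENSG00000136758, chr10:27110111-27155266, minus strand), the protease that faces the intermembrane space, stood at 95.4 and 96.1 RPKM in control and 99.0 and 104.5 RPKM in knockdown libraries under normoxia. Its hypoxia values were 57.7 and 65.1 FPKM in control and 66.2 and 69.3 FPKM in knockdown libraries. Its knockdown libraries were the higher ones at both oxygen levels, with log2 fold changes of 0.09 (95% interval −0.04 to 0.21, limma adjusted p = 0.226) and 0.14 (−0.04 to 0.33, limma adjusted p = 0.154). Under hypoxia YME1L1 was at 0.06 without control replicate 1 (adjusted p = 0.394), and was called higher without control replicate 2 (0.23, 0.0213), with trimmed-mean scaling (0.22, 0.0446) and without mitochondrial genome genes (0.33, 0.0128). OMA1 (ENSG00000162600, chr1:58415384-58546802, minus strand) had the lowest values, 6.64 and 7.25 RPKM in control and 6.24 and 6.89 RPKM in knockdown libraries under normoxia. Those groups overlapped, at a log2 fold change of −0.07 (95% interval −0.27 to 0.13, limma adjusted p = 0.547). Under hypoxia OMA1 stood at 9.22 and 8.24 FPKM in control and 7.69 and 6.5 FPKM in knockdown libraries. The log2 fold change was −0.27 (95% interval −0.52 to −0.01, limma adjusted p = 0.068), and it passed in a fit of all 8 libraries (adjusted p = 0.0387).

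Other genes overlap the intervals of these proteases and chaperones, and the values of those at 1 or more are given for reading the levels. TUBB6 overlaps AFG3L2 at 83.2 RPKM or more and 30.6 to 40.7 FPKM, MASTL overlaps YME1L1 at 13.9 to 15.2 RPKM and 10.3 FPKM or more, and MOB4 overlaps HSPD1 at 12.4 to 15.5 RPKM and 13.2 to 16.4 FPKM. DNASE1 and AC006111.2 overlap TRAP1, at up to 18.4 FPKM and up to 2.57 RPKM, and AC092123.1 overlaps SPG7 at up to 1.27 RPKM. DNASE1 was higher with knockdown under hypoxia, at 12.25 and 14.39 FPKM in control and 18.37 and 17.81 FPKM in knockdown libraries.

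The response of 5 genes to knockdown differed between the oxygen levels by the interaction term of a limma fit of all 8 libraries. It was more negative under hypoxia for 4 of the 10 genes and more positive for 1, against 29% and 13.4% of 13585 tested genes (42.4% in either direction). The median difference of the 10 was −0.20, beside −0.13 over all tested genes, so the genes as a group were near the background here. That background moved with scaling, from 3945 genes more negative and 1815 more positive to 2835 and 2755 with trimmed-mean scaling and 2801 and 2495 without mitochondrial genome genes. HSPE1 had the largest difference, −1.01 ± 0.09 on the log2 scale (95% interval −1.20 to −0.81, limma adjusted p = 3.45e-05). TRAP1 followed at −0.69 ± 0.07 (limma adjusted p = 0.000102), then SPG7 at −0.61 ± 0.12 (0.00259) and HSPD1 at −0.38 ± 0.08 (0.00359). LONP1 went the other way, by 0.41 ± 0.09 (limma adjusted p = 0.00559), its fall being smaller under hypoxia. These 5 differences passed in all 17 alternatives, but that of HSPD1 was −0.24 both with trimmed-mean scaling (adjusted p = 0.0464) and without mitochondrial genome genes (0.0232). For CLPP, whose falls were −0.70 and −0.75, the difference was −0.05 with a wide 95% interval of −0.45 to 0.35 (limma adjusted p = 0.83), and its sign was positive under trimmed-mean scaling (0.08) and without mitochondrial genome genes (0.08). The differences of AFG3L2 (−0.21, limma adjusted p = 0.0702), OMA1 (−0.20, 0.286), CLPX (−0.15, 0.21) and YME1L1 (0.06, 0.667) were not called. Oxygen level coincided with table and measure, and PPA2 itself was 92.9% lower with knockdown under normoxia and 83.8% lower under hypoxia. The difference of PPA2 was 1.11 ± 0.15 (limma adjusted p = 0.00034). Oxygen, table and depth of knockdown cannot be told apart in the differences given here.

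**Figure D3:**
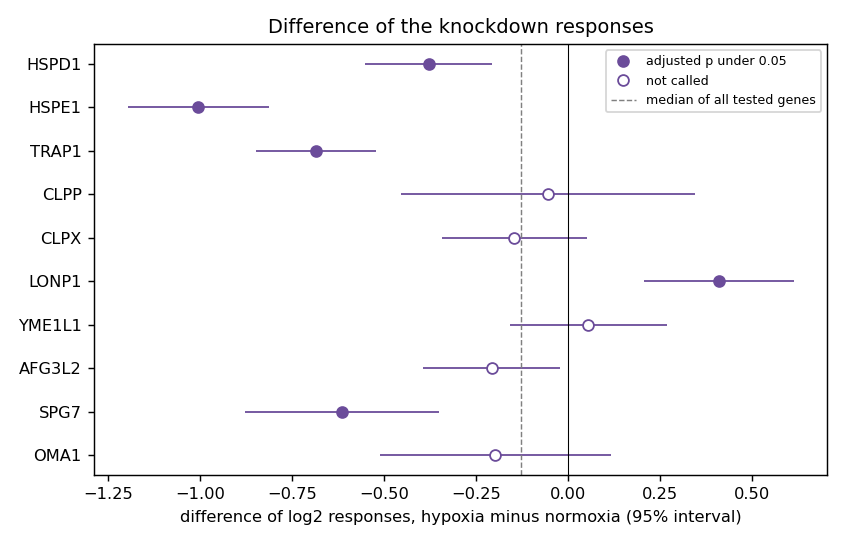
Difference between the knockdown response under hypoxia and that under normoxia for each transcript, in log2 units with 95% intervals from limma; filled circles passed an adjusted p of 0.05 and the dashed line is the median of all tested genes (−0.13). HSPE1, TRAP1, SPG7 and HSPD1 lie to the left of 0 and LONP1 (0.41) to the right.

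Transcripts whose products form a complex did not keep their ratio in every comparison. With 2 libraries against 2 the smallest two-sided p of an exact permutation test is 0.333, so the ratios, computed for 5 pairs of genes, are descriptions. The ratio of CLPP to CLPX was 2.82 and 2.73 in control and 1.99 and 1.49 in knockdown libraries under normoxia. Under hypoxia it was 2.07 and 1.74 in control and 1.35 and 1.17 in knockdown libraries, and the groups did not overlap at either oxygen level (exact permutation p = 0.333 each). The ratio of HSPD1 to HSPE1 was 7.42 and 8.01 in control and 7.67 and 8.71 in knockdown libraries under normoxia, where the groups overlapped. Under hypoxia it was 1.34 and 1.44 in control and 2.25 and 2.29 in knockdown libraries, without overlap. The ratio of AFG3L2 to SPG7 was 1.41 and 1.43 in control and 1.13 and 1.14 in knockdown libraries under normoxia. Under hypoxia the groups overlapped, at 0.648 and 0.576 in control and 0.635 and 0.67 in knockdown libraries. For genes that do not form a complex, the ratio of YME1L1 to OMA1 was higher in both knockdown libraries at both oxygen levels (means 13.8 and 15.5 under normoxia, 7.08 and 9.64 under hypoxia). The ratio of LONP1 to CLPP overlapped under normoxia (means 1.17 and 1.26) and was higher with knockdown under hypoxia (2.04 and 3.06).

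**Figure D4:**
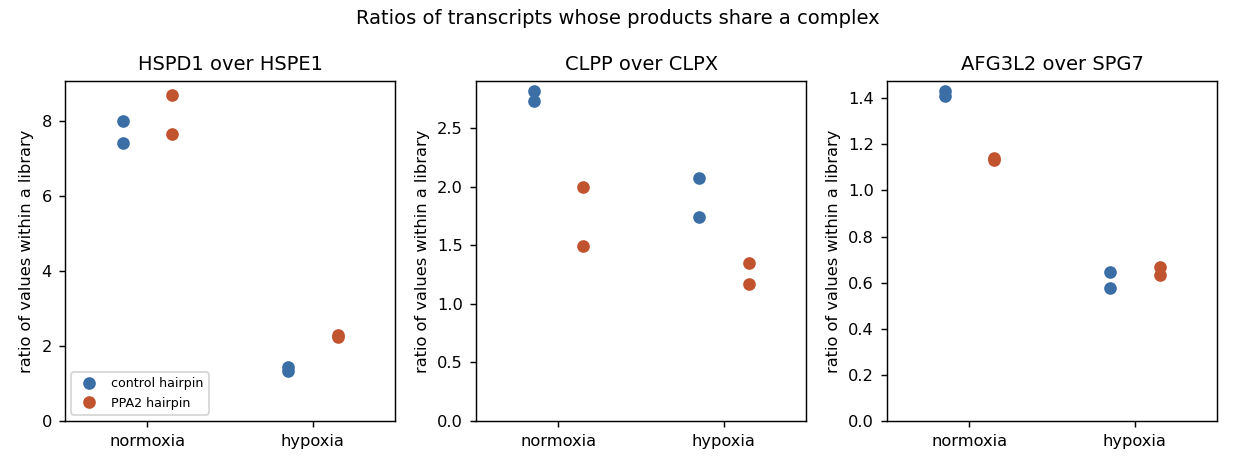
Ratio of HSPD1 to HSPE1, CLPP to CLPX and AFG3L2 to SPG7 within each library, by oxygen level; each point is a library, blue for control and red for PPA2 knockdown, and the axes start at 0. The knockdown libraries have the lower CLPP to CLPX ratio at both oxygen levels and the higher HSPD1 to HSPE1 ratio under hypoxia.

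Calls in the related lists from here on were not followed under the alternative scalings and other settings, with which the counts over all genes moved. Among other mitochondrial chaperones and co-chaperones, 5 of 7 fell and 0 rose under normoxia, against 11.7% and 22.5% of all tested genes (median −0.32, beside 0.07 over all). DNAJA3 (−0.05, limma adjusted p = 0.488) and DNLZ (0.01, 0.952) did not pass, and the falls were led by GRPEL2 (−0.47, limma adjusted p = 0.00486), GRPEL1 (−0.38, 0.00462), CLPB (−0.36, 0.0196) and BCS1L (−0.32, 0.0198). GRPEL1 and GRPEL2 are nucleotide exchange factors of the import chaperone HSPA9. Under hypoxia DNLZ did not pass the filter, and the other 6 fell, against 33.8% of all tested genes (median −0.76, beside −0.06 over all). BCS1L, an assembly factor of respiratory complex III, went from 25.6 to 6.02 FPKM (−1.92, limma adjusted p = 1.56e-05), and DNAJA3 (−0.80, 0.000151), HSPA9 (−0.79, 0.000104) and CLPB (−0.72, 0.00425) followed.

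Other mitochondrial proteases and peptidases were called in both directions under normoxia, and none was called higher under hypoxia. Of 13 tested under normoxia 4 fell and 1 rose, against 11.7% and 22.5% of all tested genes (median −0.16). XPNPEP3 (−0.53, limma adjusted p = 0.00333), MIPEP (−0.51, 0.00645) and NLN (−0.42, 0.00551) were among those that fell. The riser was IMMP1L, a subunit of the inner membrane peptidase (0.49, limma adjusted p = 0.012). Its value under hypoxia was also positive but not called (0.21, limma adjusted p = 0.114). Under hypoxia 10 of 13 fell and 0 rose, against 33.8% and 24.6% of all tested genes (median −0.38), with NLN (−0.78, 0.000856), HTRA2 (−0.75, 0.00055), PARL (−0.66, 0.000595) and PMPCA (−0.58, 0.00101) lowest by limma. PMPCA is the regulatory subunit of the peptidase that removes import signals, and PARL is a rhomboid protease that cleaves PINK1.

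Among partners of the inner membrane proteases, 3 of 5 fell under normoxia (median −0.31) and 5 of 5 under hypoxia (median −0.60), against 11.7% and 33.8% of all tested genes. PHB2, a prohibitin that forms rings around the AFG3L2 protease, went from 248.5 to 109.7 RPKM (−1.17, limma adjusted p = 0.000235) and from 178.2 to 73.4 FPKM (−1.27, 3.04e-05). GHITM (−0.43, limma adjusted p = 0.00194) and PHB (−0.31, 0.0101) fell under normoxia. STOML2 (−0.72, limma adjusted p = 0.000578), PHB (−0.60, 0.000363) and GHITM (−0.48, 0.000614) fell under hypoxia.

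Among 11 substrates of these proteases, 2 fell and 0 rose under normoxia (median −0.08), near the 11.7% of all tested genes that fell. They were PRELID1 (−0.25, limma adjusted p = 0.0298) and ERAL1 (−0.20, 0.0321). Under hypoxia 7 fell and 1 rose, against 33.8% and 24.6% of all tested genes (median −0.28). PGAM5 (−0.89, limma adjusted p = 0.000109), TIMM17A (−0.53, 0.000524), ERAL1 (−0.53, 0.000755) and MRPL32 (−0.51, 0.00266), a ribosomal protein that the AFG3L2 protease matures, were lowest. The gene that rose was STARD7 (0.44, limma adjusted p = 0.00109), named after its values were seen. Among factors linked to the mitochondrial unfolded protein response, 1 of 8 fell and 1 rose under normoxia (median −0.12), near the 11.7% of all tested genes that fell and below the 22.5% that rose. They were ATF4 (−0.81, limma adjusted p = 0.000409) and ATF5 (0.39, 0.0266). Under hypoxia 4 of 8 fell and 0 rose, against 33.8% and 24.6% of all tested genes (median −0.14), namely DDIT3, which encodes CHOP (−1.40, limma adjusted p = 3.09e-05), ATF4 (−0.78, 0.000147), HSF1 (−0.55, 0.0015) and CEBPB (−0.21, 0.0389).

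**Figure D5:**
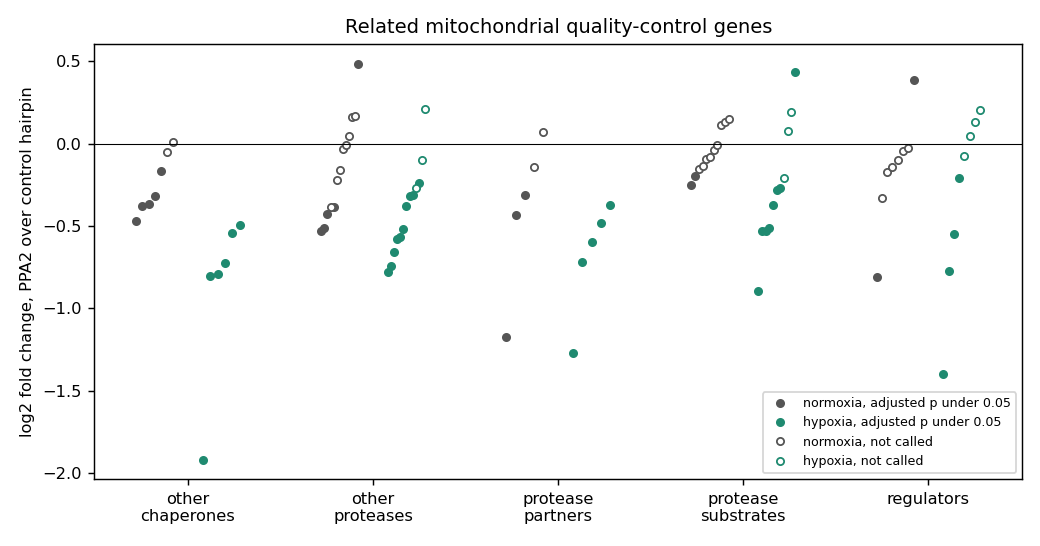
Log2 fold change with PPA2 knockdown of related genes in 5 groups, in grey for normoxia and green for hypoxia; each circle is a gene, filled where it passed an adjusted p of 0.05. Most green circles lie below 0, with BCS1L (−1.92) lowest, and the filled circles above 0 are IMMP1L and ATF5 under normoxia and STARD7 under hypoxia.

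The genes whose values were most like those of HSPD1 over the 8 libraries, centred within each table, were HNRNPA1, EXOSC2 and MCM4 (Pearson r across libraries of 0.999, 0.997 and 0.997). Among 5685 genes ranked, TRAP1 was at rank 33, AFG3L2 at 90 and HSPE1, its neighbour on the chromosome, at 183 (r = 0.977). The other members ranked were further down: CLPX at 1004, CLPP at 1295, SPG7 at 2266, LONP1 at 2298 and YME1L1 at 4290 (r = −0.725). For CLPP the 3 most alike were RPS16, CIAO2B and PNPLA2 (r = 0.998, 0.994 and 0.992), and CLPX was at rank 1488 (r = 0.735). HSPD1 was at rank 579 for CLPP, TRAP1 at 657, HSPE1 at 664, AFG3L2 at 711, LONP1 at 813, SPG7 at 2615 and YME1L1 at 5054 (r = −0.881). The 8 points share 4 groups and 2 normalizations, so these values are descriptions.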

How the data were processed

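Expression of human DLD1 cells was deposited as RPKM (normoxia) and FPKM (hypoxia) per gene, as named in the file headers and sheet names. The submitters' processing notes name cutadapt 1.18, Trimmomatic 0.35, FastQC, HISAT2 2.1.0 and the GRCh38 build. Which counter and annotation the authors used is not given in these sources. An annotated hypoxia sheet, with 0 values that differed, gave coordinates. Another 4 columns were of no sample here and were not used.

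Normoxia depth was estimated from whole-read steps of single-exon genes: 90.4% to 91.1% of low values lay within 0.02 of a whole read at the chosen depth, against at most 12.0% under hypoxia, where no estimate is given. Values were tested as log2(value + 1), which understates changes of low genes, for genes with a mean of at least 1, with limma 3.58.1 in R 4.3.3 (trended variance) and Benjamini-Hochberg adjustment. The difference of responses was the interaction over the 57069 symbols used once in each table. The median standard error was 0.08 (normoxia), 0.10 (hypoxia) and 0.13 (difference). The steps were tested on simulated data. Python 3.11.15, numpy 2.4.6, pandas 2.3.3 and scipy 1.17.1 were used. Alternatives were pseudocounts of 0.1 and 0.01, filters, scalings, an adjusted p of 0.01, a robust fit, all 8 libraries, a replicate block and leaving out libraries. The scaling without mitochondrial genome genes set the sums of the remaining values equal between the libraries of an oxygen level. The members and lists were chosen with earlier results of these data known. All members are named; of each related list, up to 4 called genes with the largest change; overlapping genes and pseudogenes at 1 or more; and the 3 genes most like HSPD1 and CLPP. PPA2 checks the hairpin.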

Additional observations from a re-analysis of the deposited data

Results flagged for a closer look

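The knockdown response of 5 genes differed between hypoxia and normoxia by the interaction term of limma, each with an adjusted p under 0.05, where 42.4% of all tested genes were called in either direction, so 5 of 10 is near the background. Hypoxia minus normoxia, on the log2 scale, it was −0.38 for HSPD1, −1.01 for HSPE1, −0.69 for TRAP1, −0.61 for SPG7 and 0.41 for LONP1. The value of HSPD1 was −0.24 under trimmed-mean scaling. SPG7 is the gene whose knockdown libraries were higher than control under normoxia (0.15, not called) and lower under hypoxia (−0.46). Values of pseudogenes of HSPD1 and HSPE1 differed between the tables, and their part in these differences was not tested. Oxygen level, table and depth of PPA2 knockdown went together and cannot be told apart in these differences. With groups of 2, no library was tested as an outlier.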

How the results depend on the processing

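HSPD1, HSPE1 and TRAP1 kept their direction and their call within both oxygen levels under all 14 alternatives, LONP1 under normoxia and CLPP under hypoxia as well. The setting without mitochondrial genome genes also rescaled libraries to equal sums, so its effects are not those of the omitted genes alone. With mitochondrial genome genes left out, the members called lower under hypoxia were 4 in place of 7, and 1 was called higher under normoxia (SPG7) and 1 under hypoxia (YME1L1). Trimmed-mean scaling also gave 1 higher under hypoxia. In the other direction, a fit of all 8 libraries called 9 lower under hypoxia, CLPX and OMA1 included. Leaving out each replicate gave 5 lower and 0 higher under normoxia, 6 to 7 lower and 0 to 1 higher under hypoxia, and 4 to 5 more negative and 1 more positive for the difference. Signs turned in the rescaled fit without mitochondrial genome genes for CLPX under normoxia (0.026) and hypoxia (0.014), LONP1 under hypoxia (0.0052) and the difference of CLPP (0.079). The difference of CLPP was also positive with trimmed-mean scaling (0.084), without knockdown replicate 1 of normoxia (0.13), control replicate 1 of hypoxia (0.054) or knockdown replicate 2 of hypoxia (0.077), and that of YME1L1 was −0.031 without control replicate 1 of hypoxia. Leaving out each replicate gave −0.24 to 0.13 for the first and −0.031 to 0.14 for the second. The causes were not tested.

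Replicate numbers were not taken as pairs: replicate differences of control and knockdown correlated across genes at 0.04 (normoxia) and −0.02 (hypoxia). With the replicate block 5 members were called lower under normoxia, 7 under hypoxia, and 4 and 1 differed. Under hypoxia the block lost LONP1 (adjusted p = 0.0597) and gained OMA1 (0.0453); under normoxia it lost AFG3L2 (0.0582). Over all genes, calls under normoxia were 777 lower and 1572 higher with no filter and 740 and 1407 at an adjusted p of 0.01, against 1653 and 3165. They were 954 and 2073 without control replicate 1 and 1078 and 2088 without control replicate 2. For the difference, 2835 were more negative and 2755 more positive with trimmed-mean scaling, and 2601 and 1034 at 0.01, against 3945 and 1815. Depth is unknown under hypoxia, so what it limits there cannot be given.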
